A study of Homo sapiens with 12 samples.

Results

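The 38 genes described here encode subunits of the proteasome, together with its activators and the assembly factor POMP, on 12 Affymetrix U133 Plus 2.0 arrays of the B cell lymphoma lines Pfeiffer and OCI-Ly7. They were chosen by symbol: PSMA, PSMB, PSMC or PSMD followed by digits, plus PSME1 to PSME4 and POMP, each represented by its brightest probe set carrying a single gene symbol. They make up 38 of the 19775 genes that such probe sets represent. Both lines are diffuse large B cell lymphoma of the germinal centre type, and both groups of each line were transiently transfected: 3 Pfeiffer cultures with BCL6 siRNA, 3 Pfeiffer cultures with a non-target control, 3 OCI-Ly7 cultures with BCL6 siRNA and 3 OCI-Ly7 cultures with a non-target control. Total RNA was taken 48 h after transfection, from cultures in serum-supplemented IMDM. The titles of the Pfeiffer control arrays name an shRNA where their descriptions name an siRNA, and the descriptions were followed. Each line stands for one tumour, the repeats are transfections of that line, and transient siRNA leaves part of the target mRNA, so the p-values measure the spread between transfections only.

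The proteasome is the protease that degrades ubiquitin-tagged proteins. Its core is a stack of rings of alpha subunits (PSMA genes) and beta subunits (PSMB genes), in which PSMB5, PSMB6 and PSMB7 carry the proteolytic sites of the standard particle. In the immunoproteasome, which B cells and interferon-treated cells build, PSMB8 takes the place of PSMB5, PSMB9 that of PSMB6 and PSMB10 that of PSMB7, which alters the peptides made for class I antigen presentation. A regulatory particle with an ATPase ring (PSMC genes) and non-ATPase subunits (PSMD genes) unfolds substrates and feeds them into the core, and the PSME activators can cap the core in its place. BCL6 is the transcriptional repressor of the germinal centre B cell.

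Of the 38 genes, 21 had several usable probe sets and 17 had 1, which gave 71 probe sets in all. PSMA6 and PSME2 are carried only by probe sets with several symbols and were left out, and PSMB11, PSMC5, PSMD7 and PSMD13 were not analysed here. All 38 genes were among the 9888 genes tested, whose lowest kept level was 7.91 on the log2(signal + 16) scale used throughout. PSMA8 passed only because it was bright in Pfeiffer (mean level 9.27), since its mean level in OCI-Ly7 was 6.25. The other 37 genes were above that level in both lines.

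BCL6, the target of the siRNA, was lower after BCL6 siRNA in both lines. It changed by -0.96 in Pfeiffer and -0.42 in OCI-Ly7, a difference of -0.54 ± 0.11 (SE; adjusted p = 0.00496, limma). Its levels were 13.11, 13.04 and 12.75 in Pfeiffer BCL6 siRNA cells, against 13.86, 13.92 and 14.01 in Pfeiffer control cells, and 13.13, 13.10 and 13.15 in OCI-Ly7 BCL6 siRNA cells, against 13.50, 13.57 and 13.59 in OCI-Ly7 control cells. The 5 B cell markers measured (MS4A1, CD79A, CD79B, PAX5 and CD22) were above the lowest kept level in every group, whereas the 4 T cell, 3 myeloid and 4 thymus or testis markers were all below it. The B cell markers themselves moved: 4 of 5 were called lower in Pfeiffer BCL6 siRNA cells, where their summed linear signal was 29319 to 33356 against 44015 to 44521 in Pfeiffer control cells, and 2 of 5 were called higher in OCI-Ly7 BCL6 siRNA cells, at 59312 to 60434 against 49486 to 51684 in OCI-Ly7 control cells. Their part in the changes below was not tested. Pfeiffer BCL6 siRNA replicate 3 had the highest 3' to 5' log2 ratio of the 12 arrays for GAPDH, at -0.027, with -0.149 to -0.094 on the others. It also had the highest for ACTB, at 0.388, with 0.109 to 0.308 on the others. In bulk RNA, fewer cells of a kind and less RNA per cell cannot be told apart.

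In Pfeiffer, BCL6 siRNA moved 8 of the 38 proteasome genes past the threshold, an adjusted p under 0.05 from limma with Benjamini-Hochberg adjustment over all 9888 genes. PSMD10, PSMA1, PSMD14, PSMB2, PSMB7 and POMP rose, and PSMD9 and PSME3 fell. PSMD10 rose to 160% of control, and the other 7 changed by -0.28 to 0.27 log2 units. The share of all tested genes that passed was 16.2% (7.9% higher and 8.31% lower), so 8 of 38, or 21.1%, was near the background. The median change was 0.05 over the 38 genes and 0.00014 over all tested genes. At an unadjusted p under 0.05 stood 13 of the 38, where 29.1% of all tested genes did.

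PSMD10, also called gankyrin, is a chaperone of the regulatory particle that binds the ATPase PSMC4 and is known as an oncoprotein that binds the retinoblastoma protein. Its level was 11.85, 11.81 and 11.79 in Pfeiffer BCL6 siRNA cells, against 11.13, 11.17 and 11.11 in Pfeiffer control cells. The groups lie far apart compared with the spread within either. The change was 0.68 ± 0.05 (SE; 95% interval 0.57 to 0.79; adjusted p = 3.55e-07, limma), which ranks 166 from the most positive of the 9888 genes. Its other probe set read 11.77, 11.75 and 11.81 in Pfeiffer BCL6 siRNA cells, against 10.97, 11.09 and 10.82 in Pfeiffer control cells, a change of 0.82 ± 0.08 (SE). In OCI-Ly7 the same gene stood at 11.77, 11.84 and 11.83 in BCL6 siRNA cells, against 11.90, 11.86 and 11.94 in control cells, a change of -0.09 ± 0.05 (SE; adjusted p = 0.473, limma). The Pfeiffer control cells (mean 11.13) were thus the low group of the 4. The other means were 11.82 in Pfeiffer BCL6 siRNA cells, 11.81 in OCI-Ly7 BCL6 siRNA cells and 11.90 in OCI-Ly7 control cells. The titles of the Pfeiffer control arrays are those that name an shRNA, and the part of the control reagent was not tested. PSMC4, the ATPase that PSMD10 binds, changed by 0.03 ± 0.09 (SE) in Pfeiffer (adjusted p = 0.87, limma).

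The window of the reference genome around the start of PSMD10 is shown because this gene had the largest change of the 38. It is chrX:108091493-108091792 on the minus strand of GRCh38.p14, from RefSeq, and runs from 250 bases before to 50 bases after the start of the gene. The capitals mark ATTGG, which is the box CCAAT on the other strand. That box, searched on both strands, stood in 42.1% of the 38 promoter windows of the 33 members with one, and in 34.6% of all 35116 windows.
PSMD10: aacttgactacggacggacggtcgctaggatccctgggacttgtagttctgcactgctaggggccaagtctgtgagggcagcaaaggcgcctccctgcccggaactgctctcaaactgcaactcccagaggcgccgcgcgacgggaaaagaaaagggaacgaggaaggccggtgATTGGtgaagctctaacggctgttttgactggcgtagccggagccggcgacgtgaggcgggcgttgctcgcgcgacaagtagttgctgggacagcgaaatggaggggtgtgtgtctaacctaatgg

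**Figure D1:**
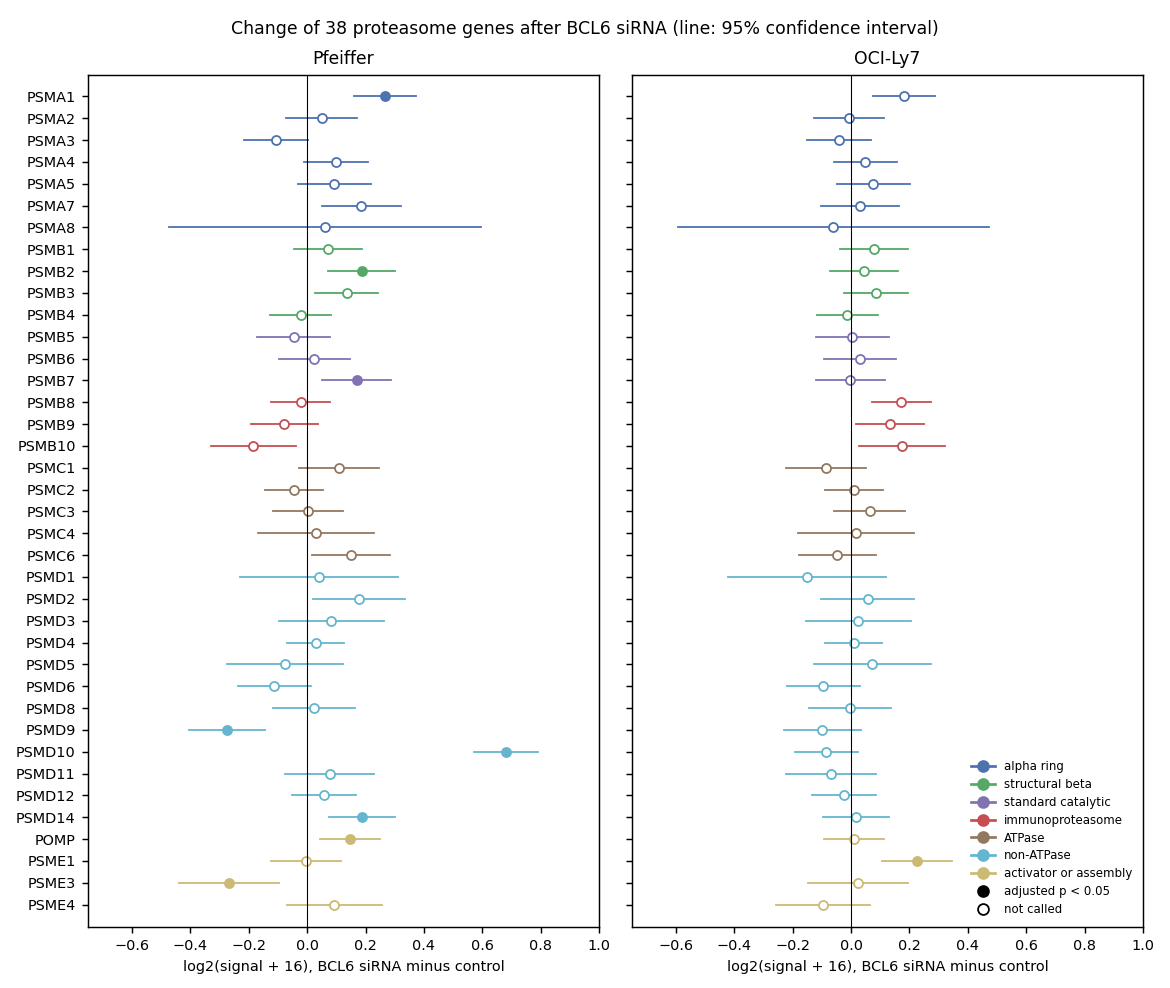
Change of each of the 38 genes after BCL6 siRNA, as the difference of means of log2(signal + 16) between BCL6 siRNA and control cells, in Pfeiffer (left) and OCI-Ly7 (right). Points are estimates, lines are 95% confidence intervals, colours give the role of the subunit and filled points have an adjusted p under 0.05: 8 in Pfeiffer, led by PSMD10 at 0.68, and 1 in OCI-Ly7, PSME1 at 0.23.

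Among the 7 alpha ring genes, PSMA1 was called in Pfeiffer and the other 6 were not. PSMA1 read 13.75, 13.69 and 13.59 in Pfeiffer BCL6 siRNA cells, against 13.37, 13.44 and 13.43 in Pfeiffer control cells, a rise of 0.27 ± 0.05 (SE; adjusted p = 0.00179, limma). The groups did not overlap, and its other 2 probe sets changed by 0.24 and 0.23. The remaining changes ran from -0.11 for PSMA3 to 0.19 for PSMA7 (adjusted p = 0.0568). Another PSMA7 probe set, bright in both lines, changed by -0.02 ± 0.10 (SE). Of the 4 structural beta genes, PSMB2 rose by 0.19 ± 0.05 (SE; adjusted p = 0.0281, limma), with 13.78, 13.68 and 13.87 in Pfeiffer BCL6 siRNA cells, against 13.58, 13.56 and 13.63 in Pfeiffer control cells. Its 3 dimmer probe sets changed by 0.53 ± 0.12, 0.13 ± 0.27 and -0.43 ± 0.42 (SE). Of these, only the one at 0.53 was above the lowest kept level in both lines. The lowest structural beta change was that of PSMB4, at -0.02. None of the 5 ATPase genes was called in Pfeiffer in limma, 1 had an unadjusted p under 0.05, and PSMC6 had the highest change, 0.15 (adjusted p = 0.12), and PSMC2 the lowest, -0.04. Another PSMC2 probe set, bright in both lines, changed by -0.39 ± 0.11 (SE) in Pfeiffer and 0.25 ± 0.11 (SE) in OCI-Ly7. A dim PSMC2 probe set changed by -0.50 ± 0.26 (SE) in Pfeiffer and 0.41 ± 0.26 (SE) in OCI-Ly7.

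Of the 12 non-ATPase genes, PSMD10 and PSMD14 rose and PSMD9 fell in Pfeiffer. PSMD14 is the deubiquitinase that removes ubiquitin chains at the entrance of the particle. It read 12.96, 12.99 and 13.01 in Pfeiffer BCL6 siRNA cells, against 12.78, 12.84 and 12.77 in Pfeiffer control cells, a change of 0.19 ± 0.05 (SE; adjusted p = 0.025, limma). PSMD9, which like PSMD10 is a chaperone in the assembly of the ATPase ring, went the other way. It read 11.93, 11.83 and 12.01 in Pfeiffer BCL6 siRNA cells, against 12.19, 12.18 and 12.23 in Pfeiffer control cells, a change of -0.28 ± 0.06 (SE; adjusted p = 0.00648, limma). Its other probe set, which is dim, changed by -0.06 ± 0.38 (SE). PSMD5, the remaining chaperone of that ring among the members, changed by -0.08 (adjusted p = 0.65), so the 3 ring chaperones were 1 gene that rose, 1 that fell and 1 not called.

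POMP, the chaperone that joins the rings of the core, read 14.04, 13.94 and 14.08 in Pfeiffer BCL6 siRNA cells, against 13.88, 13.90 and 13.84 in Pfeiffer control cells, a change of 0.15 ± 0.05 (SE; adjusted p = 0.0485, limma). Its other probe set, bright in both lines, changed by 0.03 ± 0.15 (SE). PSME3, which caps proteasomes in the nucleus, read 11.95, 11.79 and 12.13 in Pfeiffer BCL6 siRNA cells, against 12.23, 12.24 and 12.21 in Pfeiffer control cells, a change of -0.27 ± 0.08 (SE; adjusted p = 0.0336, limma). Its control arrays lay close together, and its siRNA arrays spread more widely below them. Its 3 other probe sets changed by -0.12, -0.20 and -0.66. The other activators, PSME1 and PSME4, changed by -0.0033 (adjusted p = 0.98) and 0.09 (adjusted p = 0.467). The probe sets of PSME4 differed: its other ones, bright in both lines, changed by 0.03 ± 0.13 and -0.30 ± 0.09 (SE).

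When all 41091 probe sets with a single symbol were fitted without a filter, no member had probe sets called in opposite directions. In that fit, 6 member probe sets were called higher and 1 lower in Pfeiffer, and 0 were called in OCI-Ly7. With so few calls, opposite ones could hardly arise after BCL6 siRNA. The 8 Pfeiffer calls differ in how far they rest on single arrays. PSMD10, PSMA1 and PSMD9 kept their calls when each of the 12 arrays was left out in turn. When the probe sets of a gene were averaged, however, PSMD9 lost its call, with a change of -0.17 (adjusted p = 0.586, limma), as did PSMB2 at 0.10 (adjusted p = 0.718, limma), POMP at 0.09 (adjusted p = 0.538, limma) and PSMB7 at 0.30 (adjusted p = 0.202, limma). PSMD14 lost its call without Pfeiffer control replicate 1 or 3 or Pfeiffer BCL6 siRNA replicate 2 or 3, PSMB2 without Pfeiffer control replicate 1 or 2 or Pfeiffer BCL6 siRNA replicate 1 or 3, and PSME3 without any one of the Pfeiffer arrays other than BCL6 siRNA replicate 3. POMP kept its call only without OCI-Ly7 control replicate 3 or Pfeiffer BCL6 siRNA replicate 2, and PSMB7 only without OCI-Ly7 control replicate 1 or 3 or Pfeiffer BCL6 siRNA replicate 1. Without Pfeiffer BCL6 siRNA replicate 3, the array with the highest 3' to 5' ratios, 5 genes were called: PSMD10 and PSMA1 higher, and PSMD9, PSME3 and PSMB10 lower. That array also read highest for the members as a whole, with 28 of the 38 above their Pfeiffer mean and a median deviation of 0.06, against 0.02 over all tested genes.

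In OCI-Ly7, BCL6 siRNA moved 1 of the 38 genes past the threshold, PSME1, which rose to 117% of control. PSMB8, PSMB9 and PSMB10, the 3 immunoproteasome subunits, read higher on every BCL6 siRNA array than on every control array, but none was called. The arrays lay wholly higher in this way for 13.4% of all tested genes. The gap was narrow for PSMB9 (lowest BCL6 siRNA array 12.46, highest control array 12.45) and for PSMB10 (11.19 and 11.17). Of all tested genes 2.68% were called (1.69% higher and 0.991% lower), and 1 of 38 is 2.63%. The median change was 0.01 over the 38 genes and also 0.01 over all tested genes, and 5 of the 38 had an unadjusted p under 0.05, with 15.5% of all tested genes doing so.

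PSME1 is a subunit of the interferon-inducible activator that works with the immunoproteasome. It read 12.61, 12.52 and 12.55 in OCI-Ly7 BCL6 siRNA cells, against 12.28, 12.27 and 12.45 in OCI-Ly7 control cells. The change was 0.23 ± 0.06 (SE; 95% interval 0.11 to 0.35; adjusted p = 0.0464, limma). That call was close to the threshold: it held when OCI-Ly7 control replicate 3 or Pfeiffer BCL6 siRNA replicate 3 was left out and was lost without any one of the other 10 arrays, with an adjusted p of up to 0.174. PSMA1 was also higher on every BCL6 siRNA array, at 13.48, 13.52 and 13.46, against 13.33, 13.31 and 13.27 in OCI-Ly7 control cells, but its change of 0.18 ± 0.05 (SE) had an adjusted p of 0.0676 (limma). Without Pfeiffer BCL6 siRNA replicate 3 both PSME1 and PSMA1 were called in OCI-Ly7.

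Elsewhere the changes in OCI-Ly7 were small. The ATPase genes ran from -0.09 for PSMC1 to 0.06 for PSMC3, the non-ATPase genes from -0.15 for PSMD1 to 0.07 for PSMD5, and the structural beta genes from -0.01 for PSMB4 to 0.09 for PSMB3. In the alpha ring PSMA8, dim in this line, was the lowest at -0.06. PSME4, PSME3 and POMP changed by -0.10, 0.02 and 0.0092. The groups did not overlap for 8 of the 38 genes, 6 higher and 2 lower, where 22.9% of all tested genes did not overlap (13.4% higher and 9.42% lower). In Pfeiffer 15 of the 38 did not overlap, 10 higher and 5 lower, where 33% of all tested genes did not overlap (16% higher and 16.9% lower). The 95% intervals, which are not adjusted, reached 0.12 to either side of the estimate at the median in each line. Changes smaller than that were mostly not detectable with 3 arrays a group. After adjustment some larger ones were not called either, such as PSMA1 at 0.18 in OCI-Ly7 and PSMA7 at 0.19 in Pfeiffer. The other probe set of PSMA7 changed by -0.02 ± 0.10 (SE) in Pfeiffer.

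The exchange of catalytic subunits was compared next, the standard subunits with the immunoproteasome subunits that replace them. In Pfeiffer, PSMB7 was the 1 standard gene called, and of the immunoproteasome genes 0 were called and 1, PSMB10, had an unadjusted p under 0.05 in limma. In OCI-Ly7 no gene of either class was called, all 3 immunoproteasome genes and 0 standard genes had an unadjusted p under 0.05, and the 3 immunoproteasome genes had changes of 0.13 to 0.17, with -0.0023 to 0.03 for the 3 standard genes. The 3 immunoproteasome genes all had groups that did not overlap, with BCL6 siRNA higher, as 13.4% of all tested genes had in OCI-Ly7.

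PSMB8, which replaces the chymotrypsin-like subunit, read 12.52, 12.55 and 12.51 in Pfeiffer BCL6 siRNA cells, against 12.62, 12.52 and 12.50 in Pfeiffer control cells. In OCI-Ly7 it read 12.41, 12.42 and 12.38 in BCL6 siRNA cells, against 12.25, 12.22 and 12.23 in control cells. The groups overlapped in Pfeiffer (change -0.02 ± 0.05 SE; adjusted p = 0.819, limma) and were apart in OCI-Ly7 (change 0.17 ± 0.05 SE; adjusted p = 0.0726, limma). Its standard counterpart PSMB5 read 12.50, 12.42 and 12.61 in Pfeiffer BCL6 siRNA cells, against 12.58, 12.51 and 12.58 in Pfeiffer control cells. In OCI-Ly7, PSMB5 read 11.61, 11.52 and 11.60 in BCL6 siRNA cells, against 11.64, 11.51 and 11.58 in control cells. Its groups overlapped in both lines, with changes of -0.05 ± 0.06 and 0.0040 ± 0.06 (SE).

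PSMB9, which replaces the caspase-like subunit, read 12.25, 12.27 and 12.37 in Pfeiffer BCL6 siRNA cells, against 12.34, 12.44 and 12.34 in Pfeiffer control cells. In OCI-Ly7 it read 12.57, 12.57 and 12.46 in BCL6 siRNA cells, against 12.36, 12.39 and 12.45 in control cells. The changes were -0.08 ± 0.05 (SE; adjusted p = 0.379, limma) in Pfeiffer and 0.13 ± 0.05 (SE; adjusted p = 0.254, limma) in OCI-Ly7. Its counterpart PSMB6 lay at 11.63 to 11.77 in Pfeiffer BCL6 siRNA cells, against 11.61 to 11.72 in Pfeiffer control cells, and at 11.82 to 11.90 in OCI-Ly7 BCL6 siRNA cells, against 11.79 to 11.91 in OCI-Ly7 control cells. Those groups overlapped in both lines, and the changes of PSMB6 were 0.02 and 0.03.

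PSMB10, which replaces the trypsin-like subunit, read 12.06, 12.15 and 12.23 in Pfeiffer BCL6 siRNA cells, against 12.39, 12.32 and 12.28 in Pfeiffer control cells. In OCI-Ly7 it read 11.19, 11.22 and 11.29 in BCL6 siRNA cells, against 11.07, 10.93 and 11.17 in control cells. All Pfeiffer BCL6 siRNA arrays lay below, and all OCI-Ly7 BCL6 siRNA arrays above, the control arrays of their line. The changes were -0.18 ± 0.07 (SE; adjusted p = 0.082, limma) in Pfeiffer and 0.17 ± 0.07 (SE; adjusted p = 0.234, limma) in OCI-Ly7, and neither was called. Its counterpart PSMB7 read 13.63, 13.66 and 13.82 in Pfeiffer BCL6 siRNA cells, against 13.54, 13.54 and 13.53 in Pfeiffer control cells, a rise of 0.17 ± 0.06 (SE; adjusted p = 0.0491, limma). In OCI-Ly7, PSMB7 read 13.25, 13.24 and 13.24 in BCL6 siRNA cells, against 13.15, 13.28 and 13.30 in control cells, and these overlapped.

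**Figure D2:**
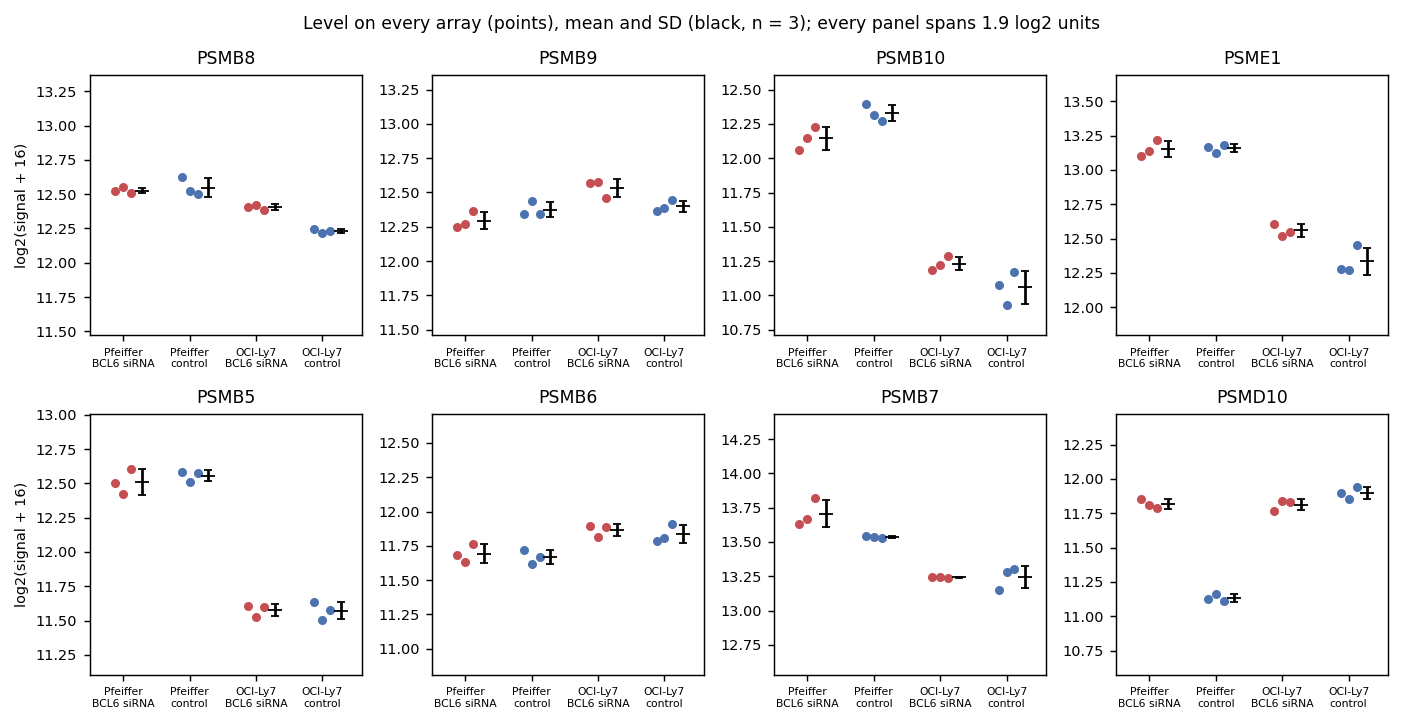
Level of the 3 immunoproteasome genes, PSME1, the 3 standard catalytic genes and PSMD10 on every array, as log2(signal + 16), with BCL6 siRNA arrays in red and control arrays in blue and each group's mean and SD (n = 3) in black. Every panel spans 1.9 log2 units. PSMB8, PSMB9, PSMB10 and PSME1 sit higher in BCL6 siRNA than in control cells of OCI-Ly7, but only PSME1 was called there. For PSMD10, Pfeiffer control cells are the low group at a mean of 11.13.

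For each pair, the difference between the immunoproteasome and the standard gene was taken within each array, and its shift was tested by an exact two-sided permutation test over the arrays, which cannot go below p = 0.1 with 3 against 3. In Pfeiffer the shift after BCL6 siRNA was 0.02 for PSMB8 minus PSMB5 (exact p = 0.9), -0.10 for PSMB9 minus PSMB6 (exact p = 0.2) and -0.35 for PSMB10 minus PSMB7 (exact p = 0.1). In OCI-Ly7 it was 0.17 for PSMB8 minus PSMB5 (exact p = 0.1), 0.10 for PSMB9 minus PSMB6 (exact p = 0.3) and 0.18 for PSMB10 minus PSMB7 (exact p = 0.1). Adjusted over the 3 pairs of a line, the lowest p was 0.3 in Pfeiffer and 0.15 in OCI-Ly7. The PSMB10 minus PSMB7 difference in Pfeiffer was lower on all 3 BCL6 siRNA arrays, by more than the pooled SD of 0.05.

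**Figure D3:**
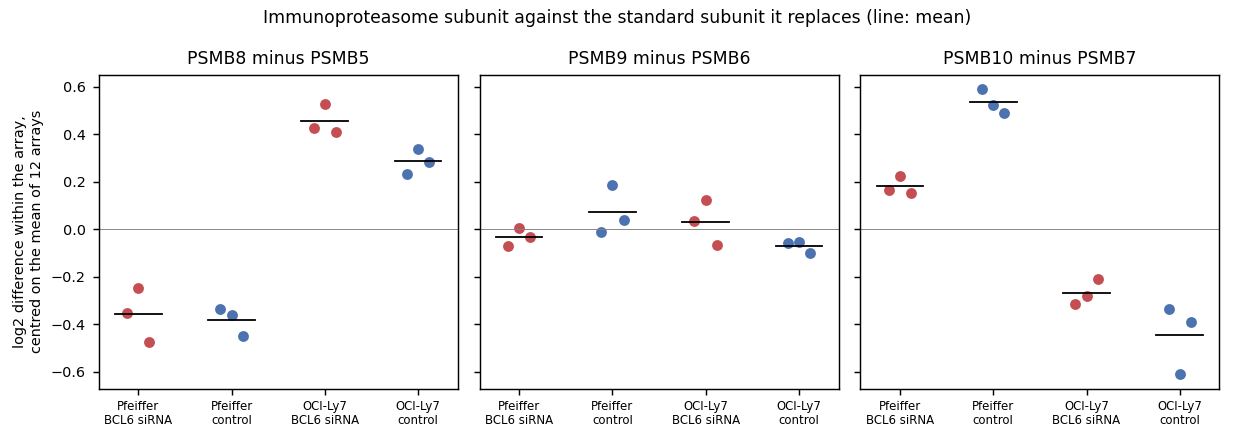
Difference between each immunoproteasome gene and the standard gene it replaces, within each array, in log2 units and centred on the mean of the 12 arrays, for the 4 groups (BCL6 siRNA in red, control in blue, line at the mean). The shift of PSMB10 minus PSMB7 is -0.35 between Pfeiffer BCL6 siRNA and Pfeiffer control cells, and 0.98 between Pfeiffer control and OCI-Ly7 control cells.

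The promoter windows of PSMB8, PSMB10 and PSME1 are shown because these interferon-inducible genes hold the same motif, on one strand or the other. The motif searched is the interferon response motif, GAAA followed by any pair of bases and GAAA again, on both strands, and capitals mark it. The windows are chr6:32843998-32844297 on the minus strand for PSMB8, chr16:67936801-67937100 on the minus strand for PSMB10 and chr14:24135944-24136243 on the plus strand for PSME1, in GRCh38.p14.
PSMB8: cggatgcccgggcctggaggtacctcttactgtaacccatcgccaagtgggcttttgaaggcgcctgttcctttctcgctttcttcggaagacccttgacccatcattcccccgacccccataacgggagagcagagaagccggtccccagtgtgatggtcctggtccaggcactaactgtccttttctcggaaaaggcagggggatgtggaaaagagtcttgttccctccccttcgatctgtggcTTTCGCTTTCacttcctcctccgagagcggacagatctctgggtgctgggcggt
PSMB10: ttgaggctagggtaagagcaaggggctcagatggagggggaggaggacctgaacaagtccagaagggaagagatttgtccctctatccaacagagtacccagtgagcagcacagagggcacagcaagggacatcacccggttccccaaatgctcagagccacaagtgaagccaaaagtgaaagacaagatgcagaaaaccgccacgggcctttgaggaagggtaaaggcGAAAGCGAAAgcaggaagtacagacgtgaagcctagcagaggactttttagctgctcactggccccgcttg
PSME1: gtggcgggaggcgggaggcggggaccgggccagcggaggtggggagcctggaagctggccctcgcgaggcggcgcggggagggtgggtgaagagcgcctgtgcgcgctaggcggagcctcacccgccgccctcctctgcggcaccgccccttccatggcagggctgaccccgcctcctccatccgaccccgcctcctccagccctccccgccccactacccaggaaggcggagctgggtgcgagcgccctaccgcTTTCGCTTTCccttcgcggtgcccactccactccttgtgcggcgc

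Relative to the start of the gene, the match begins at position -4 for PSMB8, -21 for PSMB10 and 5 for PSME1. It stood in 13.2% of the member windows, the other members being PSMA4 and PSMB4, and in 3.57% of all 35116 windows. PSMB9, the remaining exchange subunit, had no match in its window. TGACNNNGC, the motif of the proteasome regulator NFE2L1, stood in 28.9% of the member windows and 13.3% of all windows. TTCNNNGAA, a letter pattern common to STAT and BCL6 motifs, stood in 21.1% of the member windows and 7.66% of all windows, PSMB8 and PSMB5 among them. A match describes these letters and is not a binding site.

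Whether a change differed between the lines was tested with an interaction term, the change in Pfeiffer minus the change in OCI-Ly7. It passed for 2 of the 38 genes, PSMD10 and PSMB10, where 8.8% of all tested genes passed (3.74% higher and 5.06% lower). At an unadjusted p under 0.05 stood 10 of the 38, where 23.4% of all tested genes did. PSMD10 differed by 0.77 ± 0.07 (SE; 95% interval 0.61 to 0.92; adjusted p = 9.34e-06, limma). PSMB10 differed by -0.36 ± 0.10 (SE; 95% interval -0.56 to -0.15; adjusted p = 0.0312, limma). The other exchange subunits had differences of the same sign that were not called, -0.19 for PSMB8 (adjusted p = 0.0888) and -0.21 for PSMB9 (adjusted p = 0.105). The same held for PSME1 at -0.23 (adjusted p = 0.0907). The call of PSMB10 was lost without OCI-Ly7 control replicate 1 or 2, OCI-Ly7 BCL6 siRNA replicate 2 or 3, Pfeiffer control replicate 1 or 2, or Pfeiffer BCL6 siRNA replicate 1 or 2, with an adjusted p of up to 0.08. PSMD10 kept its call without any one array. PSME3 passed without Pfeiffer BCL6 siRNA replicate 3 and PSME1 without OCI-Ly7 control replicate 3. The changes of 19 of the 38 genes had the same sign in both lines, and 0 were called in both. BCL6 itself fell by more in Pfeiffer, with changes of -0.96 in Pfeiffer and -0.42 in OCI-Ly7. In these differences, the line, the size of the fall of BCL6 and any difference in control reagent between the lines cannot be told apart.

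Between the control cells of the lines, most proteasome genes differed. In Pfeiffer 32 of the 38 genes were higher and 3 lower than in OCI-Ly7, and PSMA1, PSMA2 and PSMB9 were not called. The lines differ in most genes, with 79.6% of all tested genes called, but in both directions, 42.5% higher and 37.1% lower. The median difference was 0.64 over the 38 genes and 0.07 over all tested genes. Each count over the 38 genes includes PSMA8, which was tested only because Pfeiffer is bright. Among genes bright in both lines, which leaves out PSMA8, 31 of 37 members were higher (83.8%), where 40.9% of 7974 genes were. The medians of these were 0.62 and 0.05. The arrays of the lines did not overlap for 36 of the 38 genes, 33 of them higher in Pfeiffer, where 82.4% of all tested genes did not overlap (44% higher and 38.4% lower). At an unadjusted p under 0.05 stood 36, where 80.5% of all tested genes did. The ACTB 3' to 5' log2 ratio also separated the lines, at 0.278 to 0.305 on Pfeiffer control arrays, against 0.109 to 0.201 on OCI-Ly7 control arrays, while the GAPDH ratio overlapped, at -0.134 to -0.095 against -0.149 to -0.107. The part of RNA quality in the difference was not tested. Each line is a single culture history, so line and any other difference between the cultures cannot be told apart.

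All 5 ATPase genes and all 4 structural beta genes were higher in Pfeiffer control cells. So were 11 of the 12 non-ATPase genes and 5 of the 7 alpha ring genes, where 42.5% of all tested genes were. The alpha ring count includes PSMA8, which was tested only because Pfeiffer is bright. PSMD12, a scaffold subunit of the lid of the regulatory particle, had the lowest p. It read 12.95, 12.96 and 12.89 in Pfeiffer control cells, against 11.48, 11.51 and 11.59 in OCI-Ly7 control cells, a difference of 1.40 ± 0.05 (SE; adjusted p = 1.54e-12, limma). PSMD11, another lid subunit, read 13.09, 13.04 and 13.11 in Pfeiffer control cells, against 11.78, 11.76 and 11.83 in OCI-Ly7 control cells, a difference of 1.29. Neither pair of groups came within 1 log2 unit of overlap.

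PSMC4 read 11.91, 11.97 and 11.95 in Pfeiffer control cells, against 10.11, 10.27 and 10.08 in OCI-Ly7 control cells, a difference of 1.79 ± 0.09 (SE; adjusted p = 8.78e-11, limma), or 346% of the OCI-Ly7 level. The other ATPase genes differed by 0.19 (PSMC1) to 0.85 (PSMC3), so the ring's members were not raised evenly. PSMB3, a structural subunit of the beta ring, read 14.44, 14.42 and 14.42 in Pfeiffer control cells, against 12.99, 13.05 and 13.14 in OCI-Ly7 control cells, a difference of 1.36. PSMA7 and PSMA5 of the alpha ring differed by 1.14 and 1.05. PSMA8, the testis paralogue of PSMA7, read 9.30, 9.23 and 9.20 in Pfeiffer control cells, against 6.66, 6.06 and 6.13 in OCI-Ly7 control cells. It had the largest difference of the 38, 2.96 ± 0.25 (SE; adjusted p = 2.75e-08, limma), from 1 probe set, and it was tested only because Pfeiffer is bright, so its call is no support for the group. The 4 thymus and testis markers were below the lowest kept level in both lines.

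The activators and exchange subunits were uneven. PSME3 read 12.23, 12.24 and 12.21 in Pfeiffer control cells, against 10.33, 10.51 and 10.29 in OCI-Ly7 control cells, a difference of 1.85 ± 0.08 (SE; adjusted p = 1.04e-11, limma). PSME1 was higher by 0.83 and POMP by 0.37, whereas PSME4, which caps proteasomes in the nucleus, was lower in Pfeiffer by 0.32 on the log2 scale, at a mean of 10.81 ± 0.05 in Pfeiffer control cells, against 11.13 ± 0.13 in OCI-Ly7 control cells (SD, n = 3 each). PSMB10 was higher by 1.27 ± 0.07 (SE; adjusted p = 1.28e-10, limma) and PSMB8 by 0.32 ± 0.05 (SE; adjusted p = 1.84e-05, limma), while PSMB9 differed by -0.03 ± 0.05 (SE; adjusted p = 0.661, limma). Of their counterparts, PSMB5 was higher by 0.98, PSMB7 was higher by 0.29 and PSMB6 differed by -0.17 (adjusted p = 0.0145, limma). The call of PSMB6 was lost without OCI-Ly7 control replicate 3 or Pfeiffer control replicate 2.

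Set against its counterpart within each array, PSMB8 minus PSMB5 had a shift of -0.67 between Pfeiffer control and OCI-Ly7 control cells, PSMB9 minus PSMB6 one of 0.14, and PSMB10 minus PSMB7 one of 0.98. Each had the smallest exact permutation p the design allows, 0.1, so none of these shifts could pass a threshold of 0.05, and the shift of PSMB9 minus PSMB6 was 0.08 at its lowest with 1 array left out. PSMD10, at 58.9% of the OCI-Ly7 level, was the 1 non-ATPase gene lower in Pfeiffer control cells, at 11.13, 11.17 and 11.11, against 11.90, 11.86 and 11.94 in OCI-Ly7 control cells, a difference of -0.76 ± 0.05 (SE; adjusted p = 1.55e-09, limma).

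**Figure D4:**
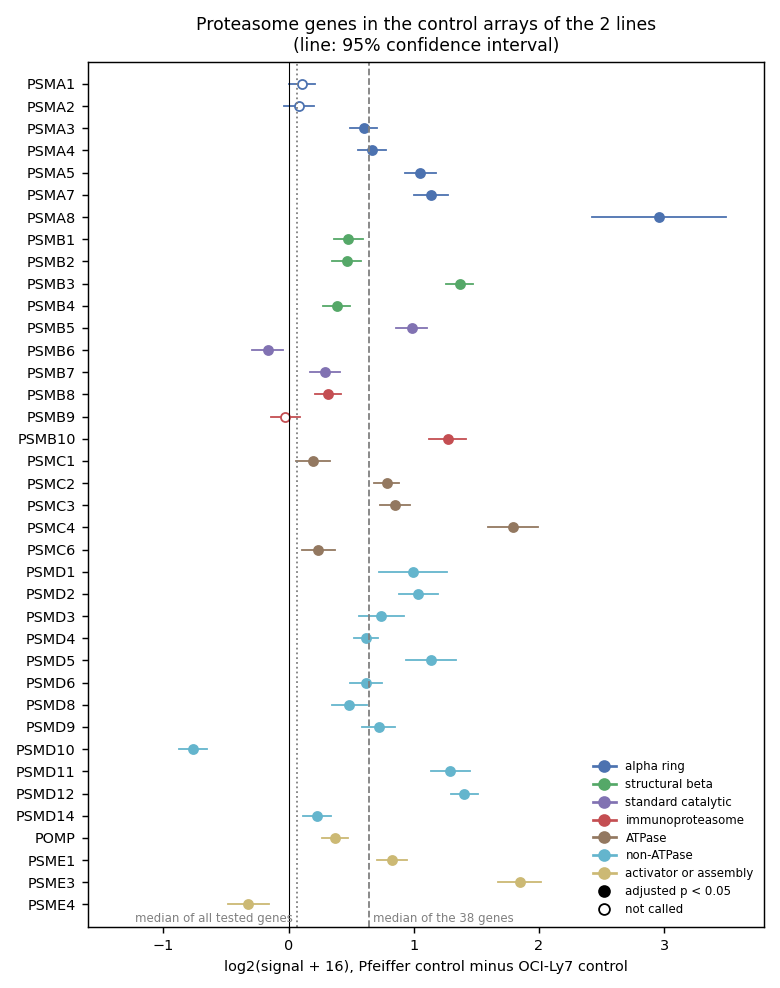
Difference between Pfeiffer control and OCI-Ly7 control cells for each of the 38 genes, in log2(signal + 16), with 95% confidence intervals, colours for the role of the subunit and filled points for an adjusted p under 0.05. Most points lie right of 0; the dashed line is the median of the 38 genes (0.64) and the dotted line the median of all tested genes (0.07), and PSMD10, PSME4 and PSMB6 are the 3 filled points left of 0.

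Genes that work with the proteasome were read from 4 lists. For comparison, 16.2% of all tested genes were called after BCL6 siRNA in Pfeiffer and 2.68% in OCI-Ly7. In OCI-Ly7 15.5% had an unadjusted p under 0.05 in limma. Between control cells 42.5% of all tested genes were higher and 37.1% lower in Pfeiffer, with a median of 0.07. Of 16 assembly and associated factors tested, 1 was called after BCL6 siRNA in Pfeiffer and 0 in OCI-Ly7, where 1 had an unadjusted p under 0.05 in limma. The gene called was ZFAND2A, a stress-induced proteasome-associated zinc finger protein, which rose by 0.32 ± 0.09 (SE; adjusted p = 0.0287, limma). Between control cells, 11 of these 16 were higher and 4 lower in Pfeiffer, with a median of 0.36. Another list was built around NFE2L1, the factor that induces proteasome genes. It held 7 genes: NFE2L1 itself, NFE2L2, NFE2L3, NGLY1, MAFF, MAFG and OGT. Of these, 1 fell in Pfeiffer: NGLY1, the glycanase that processes NFE2L1, with a change of -0.20 ± 0.06 (SE; adjusted p = 0.0361, limma). None of the 7 was called in OCI-Ly7, where 1 had an unadjusted p under 0.05 in limma. Between control cells 2 were higher in Pfeiffer, NFE2L1 itself by 0.35 and NFE2L3 by 1.11. The other 4 called were lower, and the median over the 7 was -0.59.

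Of 9 genes of ubiquitin and substrate delivery, UBQLN2, a shuttle that carries ubiquitinated proteins to the proteasome, fell in both lines. Its mean level was 10.26 in Pfeiffer BCL6 siRNA cells, against 11.18 in Pfeiffer control cells, and 10.46 in OCI-Ly7 BCL6 siRNA cells, against 11.14 in OCI-Ly7 control cells. The changes were -0.91 ± 0.07 (SE; adjusted p = 5.66e-07, limma) and -0.68 ± 0.07 (SE; adjusted p = 0.000127, limma). For comparison, BCL6 itself changed by -0.96 and -0.42. Its relative UBQLN1 fell in Pfeiffer, by 0.25 on the log2 scale (adjusted p = 0.00547, limma), and UFD1, a cofactor of the unfoldase VCP, rose there by 0.23 (adjusted p = 0.0123, limma). The change of UFD1 differed between the lines by 0.32 ± 0.08 (SE; adjusted p = 0.0208, limma).

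The fourth list held genes of interferon response and class I presentation that are induced together with the immunoproteasome subunits. Of 12 tested, 0 were called in OCI-Ly7, where 3 had an unadjusted p under 0.05 in limma, and the median change was 0.11. Of all tested genes in that line, 2.68% were called and 15.5% had an unadjusted p under 0.05. TAP1, the peptide transporter, read 10.58, 10.56 and 10.56 in OCI-Ly7 BCL6 siRNA cells, against 10.21, 10.29 and 10.31 in OCI-Ly7 control cells, a change of 0.30 (adjusted p = 0.0699, limma). In Pfeiffer, TAPBP, which tethers class I molecules to that transporter, fell by 0.74 on the log2 scale (adjusted p = 0.000195, limma), and IRF8, a transcription factor of germinal centre B cells, fell by 0.38 (adjusted p = 0.000308, limma). The remaining 10 were not called there, with changes from -0.16 for IRF1 to 0.17 for TAP1. Over the 12 genes the median change in Pfeiffer was 0.03. In that line 5 of the 12 had an unadjusted p under 0.05 in limma, where 29.1% of all tested genes did, and 16.2% were called. The change differed between the lines for TAPBP by -0.995 (adjusted p = 0.00064, limma), for IRF8 by -0.30 (adjusted p = 0.0307, limma) and for HLA-E by -0.22 (adjusted p = 0.0476, limma). Of all tested genes, 8.8% passed that test.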

How the data were processed

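Total RNA of 12 cultures was measured on Affymetrix U133 Plus 2.0 arrays. The deposited log2 values of 54675 probe sets were made with MAS5 and affy, per the submitters' processing notes, which give no version. Each array's linear mean, trimmed by 2% at either end, was 500, and no further scaling was applied. Signals were tested as log2(signal + 16), which makes changes of dim genes look smaller. The platform annotation gave 41091 probe sets a single symbol. The upper 0.5 of the 19775 genes, by the higher line mean, was fitted with limma 3.58.1 in R 4.3.3 (lmFit, eBayes with a trend, 4 group means), two-sided, with Benjamini-Hochberg adjustment. SE is the moderated standard error. Arrays give no read depth, so their number limits the precision, and the labels name no batch.

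Members, lists and tests were chosen with earlier results of these data known. Named are catalytic, exchange and activator genes, POMP, every called member, the 8 lowest p-values between lines and the extremes of each structural group. Scripts were tested on simulated data. Alternatives were quantile scaling, pseudocounts of 1 and 64, other filters and probe set rules, no trend, a replicate block, separate fits and each array left out.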

Additional observations from a re-analysis of the deposited data

Results flagged for a closer look

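The change after BCL6 siRNA differed between the lines by the interaction test for PSMD10 and PSMB10. BCL6 itself changed by -0.96 in Pfeiffer and -0.42 in OCI-Ly7, so the line and the size of that fall cannot be told apart. Nor can any difference in control reagent, since only the Pfeiffer control titles name an shRNA. PSMD10 changed by 0.68 in Pfeiffer and -0.09 in OCI-Ly7, a difference of 0.77 (adjusted p = 9.34e-06, limma), and stayed called under all 21 alternatives run, with differences of 0.75 to 0.98. PSMB10 changed by -0.18 in Pfeiffer and 0.17 in OCI-Ly7, a difference of -0.36 (adjusted p = 0.0312, limma). Every Pfeiffer BCL6 siRNA array was lower, and every OCI-Ly7 BCL6 siRNA array higher, than the control arrays of its line. The difference of PSMB10 stayed called under 10 of 21 alternatives, with adjusted p-values of 0.0169 to 0.0804 (limma).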

How the results depend on the processing

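Under the alternatives, the Pfeiffer count of 8 called genes became 4 with no filter on dim genes, 3 without probe sets of the shared-sequence types (names with _s_ or _x_, which leaves 27 of the 38 genes), 3 without a trend and 5 when Pfeiffer was fitted on its own arrays, and 3 to 8 with each array left out. The OCI-Ly7 count of 1 became 0 with a pseudocount of 1, no filter, no shared-sequence probe sets, no trend, and OCI-Ly7 on its own arrays, and 3 with the upper 0.25 of genes, and 0 to 2 with each array left out. The count of 2 that differed between the lines became 1 with no filter or no trend and 4 when the probe sets of a gene were averaged, and 1 to 3 with each array left out. The 35 genes called between control cells became 23 without shared-sequence probe sets (of 27) and 34 to 36 with each array left out. Fewer genes were testable in those fits without shared-sequence probe sets; for the others the cause was not tested. Same-numbered arrays of a line correlated in their deviations at -0.08 to 0.08, and differently numbered ones at -0.11 to 0.09. No shared effect of the number was visible, but 3 arrays a group cannot settle whether the arrays were made in pairs. With the replicate block, 5 genes were called in Pfeiffer, 0 in OCI-Ly7 and 1 for the difference.

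When the probe sets of a gene were averaged, PSMB10 minus PSMB7 shifted by -0.48 in Pfeiffer, 0.0019 in OCI-Ly7 and 1.40 between the lines, and PSMB7 between control cells turned to -0.13; that mean includes a dim PSMB7 probe set (mean levels 6.62 and 7.13). The exchange pair shifts with each array left out were -0.03 to 0.08, -0.14 to -0.04 and -0.38 to -0.33 in Pfeiffer, 0.13 to 0.19, 0.06 to 0.15 and 0.09 to 0.23 in OCI-Ly7, and -0.69 to -0.63, 0.08 to 0.18 and 0.90 to 1.04 between the lines, for PSMB8, PSMB9 and PSMB10. PSMB8 has 1 probe set, of the shared-sequence type, so its pair has no value without that type. For single genes, of 1089 values 86 lost and 4 gained a call. The sign changed for 32, of which 31 belong to genes not called, with changes of at most 0.09 in size, and 1 is PSMB7 above. PSMD10 kept its calls in Pfeiffer and for the difference between the lines in all alternatives run; its difference between control cells was not run under them.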
